A study of Homo sapiens with 2 samples.

Results

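Collagens are the main structural proteins of the extracellular matrix, and the genes described here encode collagen chains and the enzymes that modify those chains. The members were taken by gene symbol from the array's annotation: every collagen chain gene, the prolyl 4-hydroxylase subunits P4HA1 to P4HA3, the prolyl 3-hydroxylase family (P3H), the lysyl hydroxylases (PLOD) and the lysyl oxidases (LOX and LOX-like). They number 55 of 17687 genes with a symbol, and comprise 10 fibrillar chains, 6 basement membrane chains of type IV, 25 other chains and 14 modifying enzymes. Each member was read by a single probe set. COL3A1, COL7A1, COL17A1 and LOXL2 were not analysed here.

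Expression was compared between MKN1 cells carrying pBABE-puro with RHOA Y42C and MKN1 cells carrying the same vector with RHOA wild-type. MKN1 is an established human gastric cancer cell line. RHOA, a small GTPase, sets actin contractility and cell shape, and Y42C, a tyrosine-to-cysteine substitution, recurs in gastric tumours. Both lines were selected with puromycin and grown in RPMI with serum, and both keep their own RHOA gene beside the vector copy. Each line was measured on 1 array, so there is no replicate error and no test for any difference below, and the values compare these 2 lines rather than the 2 alleles in general. Parental or empty-vector cells were not analysed here, and the labels do not say whether a line is a clone or a pool.

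Collagen chains are made in the endoplasmic reticulum, where prolines and lysines are hydroxylated before chains wind into a triple helix. Prolyl 4-hydroxylation stabilises the helix, and hydroxylated lysines carry sugars and later take part in cross-links. After secretion, fibrillar chains assemble into fibrils that lysyl oxidases cross-link, while type IV chains form the sheet-like network of basement membranes. Carcinoma cells can make both kinds of collagen, although fibroblasts are the main source of fibrillar chains in most tissues.

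Values are the authors' deposited signals, taken as log2 from their range, since no source used here states the log base. Every fold below assumes that base, and every difference is Y42C minus wild-type. A gene counted as above the minimum if its signal on either array was no lower than the 95th percentile of 349 olfactory receptor genes, which a gastric line should not use. That percentile lay at 5.14 in the Y42C array and 5.17 in the wild-type array, and 4.3% of the olfactory receptor genes were 2-fold or more apart in either direction. By this measure 32 of the 55 members were above the minimum and 23 were below it on both arrays. Of all 17687 genes, 11802 were above the minimum and 5885 were below it on both arrays. RHOA signal was 16.30 in the Y42C array and 16.47 in the wild-type array, which does not check the labels because both lines carry a RHOA vector. The keratins KRT8 (17.94 in Y42C, 17.96 in wild-type) and KRT18 (17.03 in Y42C, 16.96 in wild-type) were bright in both lines, as was the epithelial adhesion gene EPCAM (13.53 in Y42C, 13.30 in wild-type). E-cadherin, CDH1, was below the minimum on both arrays (3.86 in Y42C, 3.92 in wild-type), as were 6 of 9 gastric markers. Over the 10 epithelial markers 9 were above the minimum, among them ELF3 through the wild-type array alone (4.88 in Y42C, 5.59 in wild-type). Of the 9, 0 were past 2-fold higher and 1 past 2-fold lower, against 7.46% and 9.8% of all genes above the minimum. The lower gene was CLDN7 (9.31 in Y42C, 10.61 in wild-type).

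Of the 32 members above the minimum, 11 were higher in the Y42C array by 2-fold or more and 1 was lower by as much. Among all 11802 genes above the minimum the shares were 7.46% for the higher direction and 9.8% for the lower one. The 11 higher members were COL5A1, COL5A2, COL1A2 and COL27A1 among fibrillar chains, COL4A5 and COL4A6 in basement membrane collagen, COL6A1, COL12A1 and COL18A1 among other chains, and the enzymes LOXL1 and P3H1. The 1 lower member was COL26A1. Because a gene could pass the minimum through the Y42C array alone, counts were also taken over genes above it on both arrays: 9 of 29 members were then 2-fold or more higher, against 6.9% of all such genes, and 1 was lower, against 9.43%. With no minimum, 11 of 55 members were higher by that much, against 5.52% of all 17687 genes, and 1 was lower, against 6.76%. At 1.5-fold, 14 members above the minimum were higher, against 17.8% of genes, and 5 were lower, against 23.4%. At 4-fold, 4 members (COL5A1, COL4A5, COL4A6 and COL18A1) were higher, against 1.0%, and 0 were lower, against 0.585%.

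The members did not differ as a block. Their median difference was 0.34 over the 32 above the minimum and 0.01 over all 55, where the corresponding medians of all genes were -0.07 and -0.02. Over the 29 members above the minimum on both arrays the median was 0.03, against -0.08 over all such genes. Of these 29, 16 were higher and 13 lower, so the value of 0.34 depends on members that passed through the Y42C array alone. Of the 32, 19 were higher and 13 lower, while 45.2% of all genes above the minimum were higher and 54.2% were lower. The SD of the difference was 1.08 over these 32 members and 0.768 over all genes above the minimum. The 23 members below the minimum on both arrays had an SD of 0.372, differences between -0.71 and 0.67, and 0 past 2-fold. All 5885 genes below it on both arrays had an SD of 0.414, with 1.63% past 2-fold higher and 0.663% past 2-fold lower. The count of 0 is thus close to the share of dim genes at large.

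**Figure D1:**
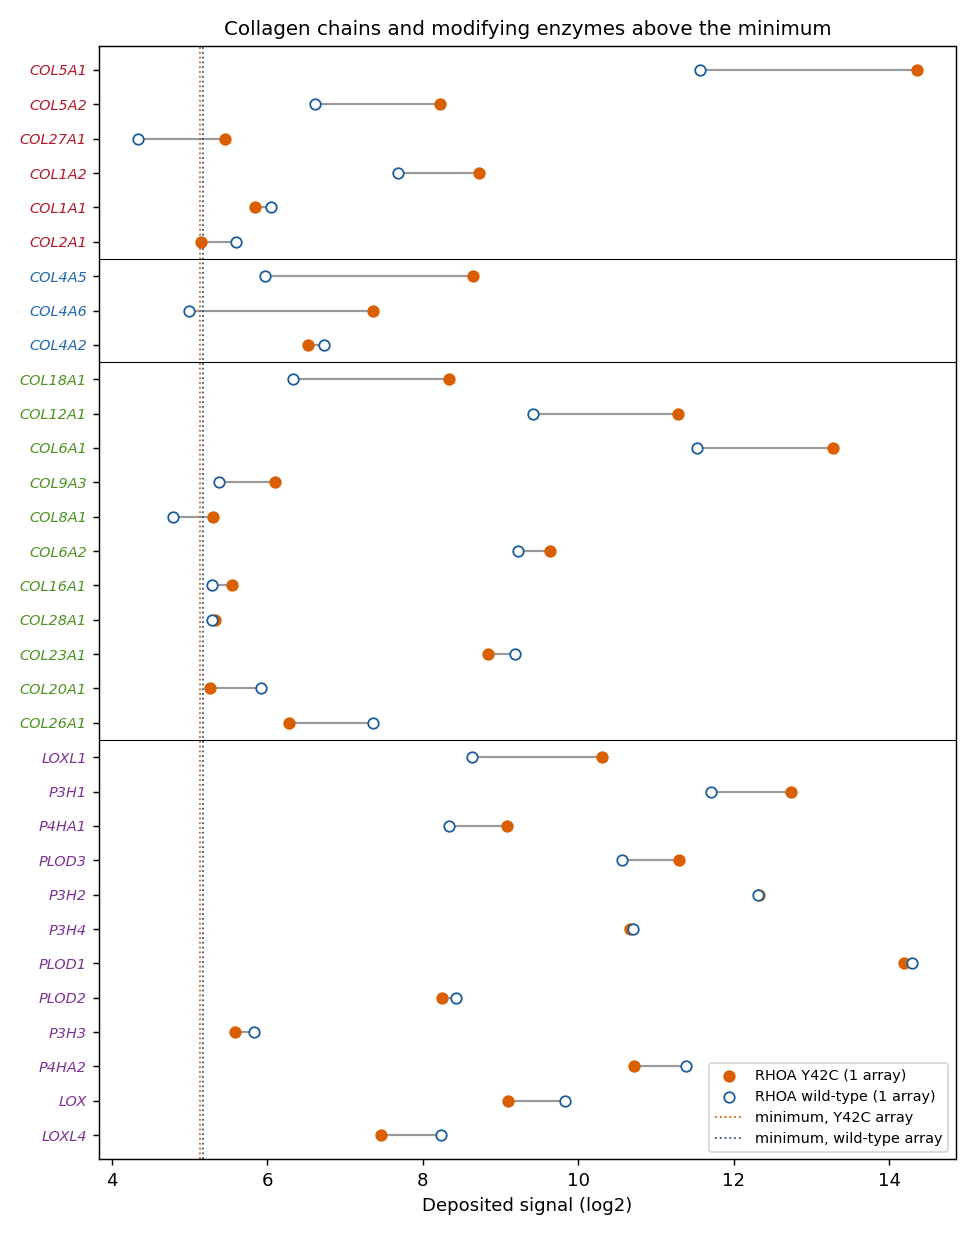
Deposited log2 signal of the 32 members above the minimum, with the Y42C array as filled points, the wild-type array as open points (1 array each), and the 2 minimums as dotted lines; label colours give fibrillar (red), basement membrane (blue) and other chains (green) and enzymes (purple). COL5A1 spans 14.35 in Y42C and 11.56 in wild-type, while PLOD1 and P3H2 have nearly coincident points.

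Fibrillar chains, which form the cross-banded fibrils of connective tissue, had the member with the largest difference. COL5A1, the chain of type V collagen that regulates fibril diameter and initiation, had a signal of 14.35 in the Y42C array and 11.56 in the wild-type array. The difference of 2.79 (6.92-fold) ranked 25th from the highest among 11802 genes. COL5A2, its partner in the common type V heterotrimer, had 8.22 in Y42C and 6.61 in wild-type, a 3.05-fold difference. The third type V chain, COL5A3, was below the minimum on both arrays (4.58 in Y42C, 4.79 in wild-type).

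The chains of type I collagen, the most abundant fibrillar collagen of the body, differed from each other. COL1A2 had 8.72 in the Y42C array and 7.68 in the wild-type array, a difference of 1.04 that lies just past 2-fold and was 0.985 with a constant of 16 added to the linear signal. COL1A1 had 5.84 in Y42C and 6.05 in wild-type, both near the minimum, a difference of -0.21. The arrays thus lay more than 2-fold apart for the alpha 2 chain and close together for the alpha 1 chain.

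The remaining fibrillar chains were dim. COL27A1, known from cartilage, had 5.46 in Y42C and 4.34 in wild-type; since the wild-type value is below the minimum, its fold is at least 1.22. COL2A1, the main cartilage collagen, had 5.14 in Y42C and 5.59 in wild-type, a difference of -0.45. COL11A1, COL11A2 and COL24A1 were below the minimum on both arrays, with signals of at most 3.85 in Y42C and 3.82 in wild-type.

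The bases before the start of COL5A1 are shown because this gene had the largest difference among the members. They are the 250 bases upstream of its first listed start, at chr9:134641553-134641802 on the plus strand of GRCh38.p14 (RefSeq), with GC boxes (GGGCGG or its complement) in capitals. The window is 74.0% G or C and holds 2 GC boxes.
COL5A1: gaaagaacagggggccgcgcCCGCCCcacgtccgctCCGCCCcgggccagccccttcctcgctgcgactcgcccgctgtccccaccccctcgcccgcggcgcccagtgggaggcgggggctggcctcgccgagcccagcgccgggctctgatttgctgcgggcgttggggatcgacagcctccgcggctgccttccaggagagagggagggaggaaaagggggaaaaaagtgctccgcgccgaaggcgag

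In basement membrane collagen, COL4A5 and COL4A6 were higher in the Y42C array, COL4A2 was close in both arrays, and COL4A1, COL4A3 and COL4A4 were below the minimum on both. Type IV chains are encoded by pairs of genes that lie head to head and are read outwards in opposite directions, COL4A1 with COL4A2, COL4A3 with COL4A4, and COL4A5 with COL4A6. Their products also assemble in set combinations: the alpha 1 and alpha 2 chains form the ubiquitous network, and the alpha 5 and alpha 6 chains occur together in the basement membranes of several epithelia and smooth muscle.

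COL4A5 had a signal of 8.64 in the Y42C array and 5.97 in the wild-type array, a 6.36-fold difference and the 38th highest of 11802 genes. COL4A6 had 7.36 in Y42C and 4.99 in wild-type, which is below the minimum, so its fold is at least 4.56. Both genes of this pair were higher in the Y42C array, and how their folds compare is not settled, since that of COL4A6 is a bound. Among 856 genes above the minimum on exactly 1 array, as COL4A6 was, 29.3% were at least 2-fold apart in either direction.

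In the other pairs at most 1 gene could be read, so a joint difference could not be assessed. COL4A2 had 6.52 in the Y42C array and 6.73 in the wild-type array, a difference of -0.21, and its neighbour COL4A1 was below the minimum on both arrays (2.65 in Y42C, 3.36 in wild-type). COL4A3 (3.83 in Y42C, 3.84 in wild-type) and COL4A4 (4.55 in Y42C, 4.31 in wild-type), chains of the kidney glomerular membrane, were also below it on both. A signal below the minimum does not show that a transcript is absent, and the probe set of COL4A1 was not checked here in cells known to use the gene.

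The stretches next to the starts of these genes are shown because both genes of the COL4A5 and COL4A6 pair were higher in the Y42C array. The stretch beside COL4A2, the other type IV gene above the minimum, is given with them. For COL4A5 the 250 bases before its start lie at chrX:108439588-108439837 on the plus strand. For COL4A6 the 250 bases before the listed start nearest to COL4A5 lie at chrX:108439459-108439708 on the minus strand. For the COL4A1 and COL4A2 pair the 126 bases between the starts lie at chr13:110307158-110307283, written on the plus strand. All are from GRCh38.p14 (RefSeq), and capitals mark CCAAT or GGGCGG on either strand.
COL4A5: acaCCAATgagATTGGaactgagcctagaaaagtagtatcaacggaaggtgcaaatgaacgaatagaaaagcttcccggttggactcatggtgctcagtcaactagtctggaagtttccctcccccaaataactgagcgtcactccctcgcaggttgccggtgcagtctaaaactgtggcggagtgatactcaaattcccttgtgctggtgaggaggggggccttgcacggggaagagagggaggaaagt
COL4A6: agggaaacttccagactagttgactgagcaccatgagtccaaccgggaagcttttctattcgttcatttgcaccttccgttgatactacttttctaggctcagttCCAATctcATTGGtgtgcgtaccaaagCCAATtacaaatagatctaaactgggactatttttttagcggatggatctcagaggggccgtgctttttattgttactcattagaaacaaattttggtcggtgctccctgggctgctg
COL4A1-COL4A2: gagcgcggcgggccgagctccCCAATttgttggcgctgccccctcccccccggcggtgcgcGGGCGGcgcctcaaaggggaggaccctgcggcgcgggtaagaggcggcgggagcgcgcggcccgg

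The starts of COL4A5 and COL4A6 are 379 bases apart, and the printed windows share 121 bases, so the pair of facing CCAAT boxes in one is the same pair in the other. COL4A6 has 1 more CCAAT box in its window, at base 133 from the 5′ end. The COL4A1 and COL4A2 stretch is richer in G and C (80.2%) than the COL4A5 window (51.2%) or the COL4A6 window (44.0%), and holds 1 CCAAT box and 1 GC box.

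Among the other chains, COL18A1, COL12A1 and COL6A1 were more than 3-fold higher in the Y42C array. COL18A1, a basement membrane zone proteoglycan whose C-terminal fragment is endostatin, had 8.34 in Y42C and 6.33 in wild-type, a 4.03-fold difference. COL12A1, a fibril-associated collagen that coats the surface of fibrils, had 11.28 in Y42C and 9.42 in wild-type, a 3.63-fold difference. COL6A1, a chain of the beaded microfibrils that link cells to the matrix, had 13.28 in Y42C and 11.53 in wild-type, a 3.36-fold difference. These 3 stood 113th, 146th and 187th from the highest difference.

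Type VI collagen is built from alpha 1, alpha 2 and a further long chain, and its chains were unequal here. COL6A2, the neighbour of COL6A1 in the genome, had 9.64 in the Y42C array and 9.22 in the wild-type array, a difference of 0.42 against 1.75 for COL6A1. COL6A3 was below the minimum on both arrays (2.68 in Y42C, 3.13 in wild-type), and so were COL6A5 (3.46 in Y42C, 3.20 in wild-type) and COL6A6 (3.96 in Y42C, 3.72 in wild-type). Of the type VI genes measured, COL6A1 alone was past 2-fold.

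COL26A1, a secreted collagen with short triple-helical parts, was the member with the most negative difference. Its signal was 6.28 in the Y42C array and 7.36 in the wild-type array, 2.11-fold lower in Y42C, the 966th lowest of 11802 genes. It passed 2-fold on the deposited values but not after removal of a trend on signal level (-0.997) or with a constant of 16 added to the linear signal (-0.94).

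Differences of the remaining chains above the minimum were under 2-fold. COL9A3, a fibril-associated cartilage chain, had 6.10 in Y42C and 5.38 in wild-type. COL8A1, a short network-forming chain, had 5.30 in Y42C and 4.78 in wild-type, which is below the minimum, so its fold is at least 1.09. COL16A1, another fibril-associated chain, lay at 5.55 in Y42C and 5.29 in wild-type, and COL28A1 at 5.32 in Y42C and 5.29 in wild-type. On the lower side were COL20A1 (5.26 in Y42C, 5.92 in wild-type) and the transmembrane collagen COL23A1 (8.84 in Y42C, 9.19 in wild-type). COL23A1 was the 1 transmembrane chain of 3 measured that was above the minimum.

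The 14 other chains below the minimum on both arrays ranged over 2.23 to 4.97 in the Y42C array and 2.29 to 4.99 in the wild-type array. Besides the type VI genes named above, they were the cartilage and network chains COL9A1, COL9A2, COL10A1 and COL8A2, the fibril-associated chains COL14A1, COL19A1, COL21A1 and COL22A1, the transmembrane chains COL13A1 and COL25A1, and COL15A1, the relative of COL18A1. Their differences lay between -0.65 and 0.67.

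The bases before COL12A1 are shown as an example of a bright chain outside the fibrillar and type IV groups. COL18A1, whose difference was larger, is not printed, and COL6A1, which was brighter, has no listed window. Among the 8 members past 2-fold and higher that have a listed window, COL12A1 alone held GGAATG. The bases lie at chr6:75206054-75206303 on the minus strand of GRCh38.p14 (RefSeq), with capitals for a GC box (GGGCGG or its complement) and for GGAATG, the core letters bound by TEAD factors.
COL12A1: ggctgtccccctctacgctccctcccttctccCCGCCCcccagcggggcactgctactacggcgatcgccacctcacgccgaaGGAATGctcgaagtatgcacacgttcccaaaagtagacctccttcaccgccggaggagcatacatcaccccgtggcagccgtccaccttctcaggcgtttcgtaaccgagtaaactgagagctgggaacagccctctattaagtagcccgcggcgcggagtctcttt

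**Figure D2:**
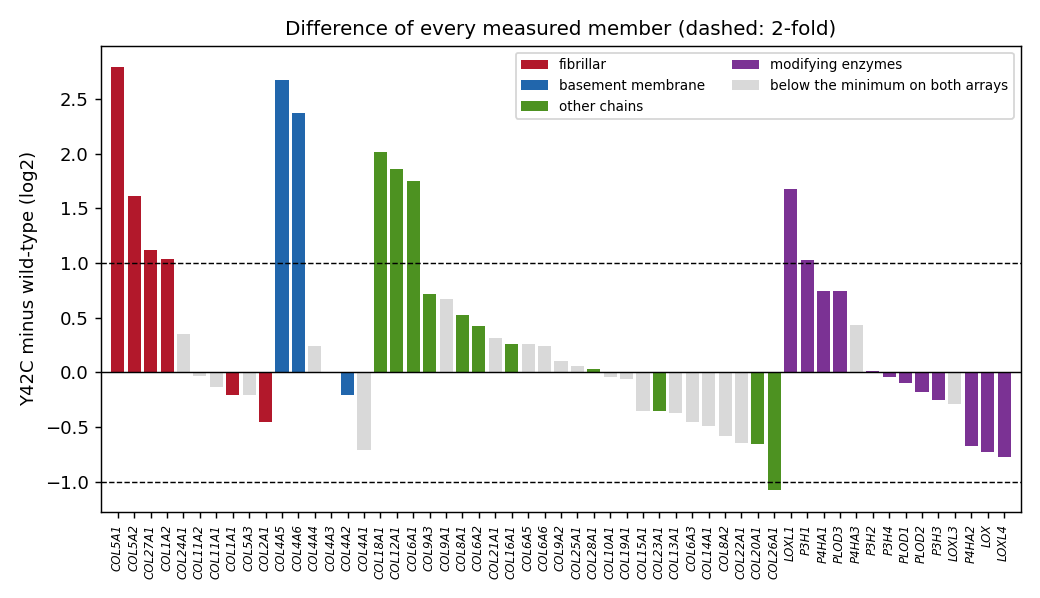
Y42C minus wild-type log2 difference of all 55 members, ordered within each class, with dashed lines at 2-fold and grey bars for members below the minimum on both arrays. Bars reach 2.79 (COL5A1) at the top and -1.08 (COL26A1) at the bottom, and no grey bar crosses a dashed line.

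Enzymes were higher and lower in near-equal numbers. Of the 12 enzymes above the minimum, 5 were higher and 7 lower in the Y42C array, with a median difference of -0.07, the same as that of all genes above the minimum. LOXL1 and P3H1 were past 2-fold higher and 0 enzymes past 2-fold lower, against 7.46% and 9.8% of all genes above the minimum. Of the 20 chains above the minimum, 9 were past 2-fold and higher and 1 past 2-fold and lower, against the same shares. Their median difference was 0.62, and over all 41 chains measured the median was 0.06. Over the 17 chains above the minimum on both arrays the median was 0.42. Of these 17, 7 were past 2-fold and higher and 1 past 2-fold and lower. The shares of all genes above it on both arrays were 6.9% and 9.43%. Among the 12 enzymes the sign of P3H4 alone depended on the scaling, with a difference of -0.04 as deposited and 0.02 after centring of the arrays. Whether chains and enzymes differ as groups was not tested.

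Lysyl oxidases, copper enzymes that start the cross-linking of collagen and elastin, differed in opposite directions. LOXL1, which is needed for elastic fibre upkeep in mice, had 10.31 in the Y42C array and 8.63 in the wild-type array, a 3.20-fold difference. LOX itself had 9.10 in Y42C and 9.83 in wild-type, a difference of -0.73, and LOXL4 had 7.46 in Y42C and 8.23 in wild-type, a difference of -0.77. LOXL3 was below the minimum on both arrays (4.61 in Y42C, 4.90 in wild-type).

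Prolyl 3-hydroxylases modify a small number of prolines per chain. P3H1, which works in a complex with CRTAP and cyclophilin B on fibrillar chains, had 12.73 in Y42C and 11.70 in wild-type, a difference of 1.03. P3H2, which acts on basement membrane collagen, was nearly equal (12.32 in Y42C, 12.31 in wild-type). P3H4, a family member without catalytic activity, had 10.66 in Y42C and 10.70 in wild-type, and P3H3 had 5.58 in Y42C and 5.83 in wild-type. P3H1 was thus the 1 of 4 family members past 2-fold, by a narrow margin, and the other genes of its complex did not share that difference: CRTAP had 13.11 in Y42C and 13.40 in wild-type, and PPIB, cyclophilin B, 15.54 in Y42C and 15.78 in wild-type.

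The catalytic subunits of prolyl 4-hydroxylase differed in opposite directions by less than 2-fold. P4HA1 had 9.08 in the Y42C array and 8.34 in the wild-type array (0.74), and P4HA2 had 10.71 in Y42C and 11.38 in wild-type (-0.67). P4HA3 was below the minimum on both arrays (3.69 in Y42C, 3.26 in wild-type). Their shared beta subunit, P4HB or protein disulfide isomerase, had 13.88 in Y42C and 14.12 in wild-type.

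Lysyl hydroxylases were little different apart from PLOD3. PLOD3, which also adds sugars to hydroxylysine, had 11.30 in Y42C and 10.56 in wild-type, a difference of 0.74. PLOD1, which hydroxylates lysines in the helix, had 14.19 in Y42C and 14.29 in wild-type. PLOD2, which acts on the telopeptides at the chain ends, had 8.25 in Y42C and 8.43 in wild-type.

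**Figure D3:**
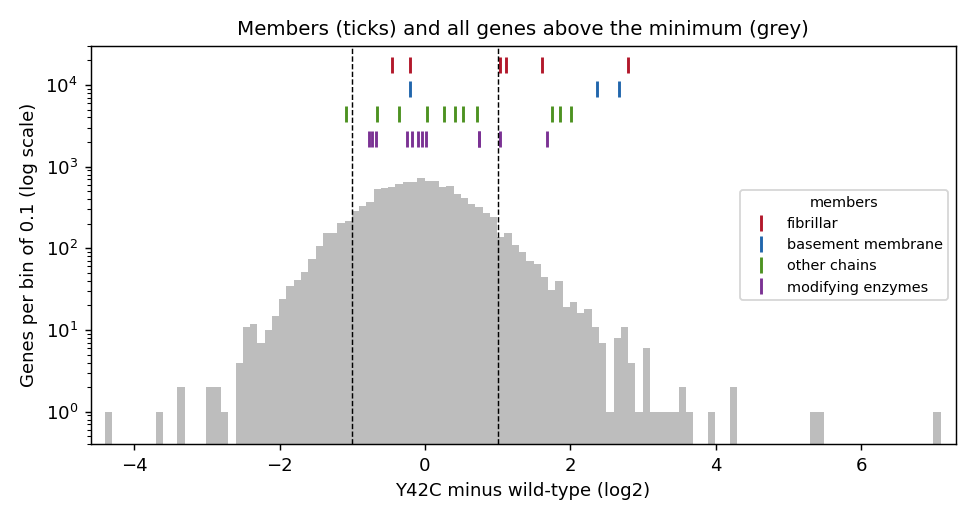
Histogram (grey, log-scaled count axis, bins of 0.1) of the Y42C minus wild-type log2 difference of the 11802 genes above the minimum, with each of the 32 members above the minimum as a coloured tick by class and dashed lines at 2-fold. Ticks of 11 members lie right of the upper dashed line and that of 1 member lies left of the lower one.

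Other genes of collagen biology were read from 4 lists, which were chosen with earlier results of these data known. In the list for folding and secretion, 16 genes were above the minimum, and in the Y42C array 0 were past 2-fold higher and 2 past 2-fold lower, against 7.46% and 9.8% of all genes above the minimum. Their median difference was -0.27. SEC13, a coat protein of the vesicles that leave the endoplasmic reticulum, had 11.06 in Y42C and 12.39 in wild-type (2.51-fold lower), and FKBP14, a prolyl isomerase that binds procollagen, had 9.32 in Y42C and 10.41 in wild-type (2.13-fold lower). The collagen chaperone SERPINH1, known as HSP47, had 12.78 in Y42C and 12.15 in wild-type, under 2-fold.

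Genes that cleave or aid cleavage of the propeptides had 5 of 8 members above the minimum, with 0 past 2-fold higher and 1 past 2-fold lower, against the same shares of all genes. That gene was ADAMTS14, a procollagen N-proteinase, with 4.78 in Y42C, below the minimum, and 5.93 in wild-type. Its place past 2-fold rests on the value below the minimum, and against the minimum it was at least 1.73-fold lower. BMP1, the C-proteinase, had 9.83 in Y42C and 9.45 in wild-type.

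Collagen receptors and uptake genes had 5 of 9 members above the minimum, and the differences of these 5 ran between 0.04 (GP6) and 1.88 (ITGA2). The 1 gene past 2-fold stands against 7.46% of all genes above the minimum, and the 5 of 5 above 0 against 45.2%. The other genes of the list, below the minimum on both arrays, had differences between -0.42 (ITGA11) and 0.32 (DDR2). ITGA2, whose product pairs with the beta 1 integrin to bind collagen, had 12.52 in Y42C and 10.64 in wild-type, a 3.68-fold difference. Its partner ITGB1 had 14.74 in Y42C and 14.56 in wild-type, and the collagen-activated kinase DDR1 had 10.08 in Y42C and 9.32 in wild-type.

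Proteins that lie on or beside fibrils were mostly below the minimum, with 4 of 12 above it. Of these, 3 were past 2-fold and higher in the Y42C array, against 7.46% of all genes above the minimum. The list is too short for more than a description, and it was not chosen blind to these data. CTHRC1, a secreted protein with a short collagen repeat, had 10.05 in Y42C and 7.21 in wild-type (7.16-fold). FN1, fibronectin, on which collagen fibrils assemble, had 12.60 in Y42C and 9.81 in wild-type (6.92-fold). LUM, lumican, a proteoglycan that spaces fibrils, had 14.37 in Y42C and 12.09 in wild-type (4.86-fold). SPARC, a collagen-binding matrix protein, was bright and close in both (14.65 in Y42C, 14.96 in wild-type).

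**Figure D4:**
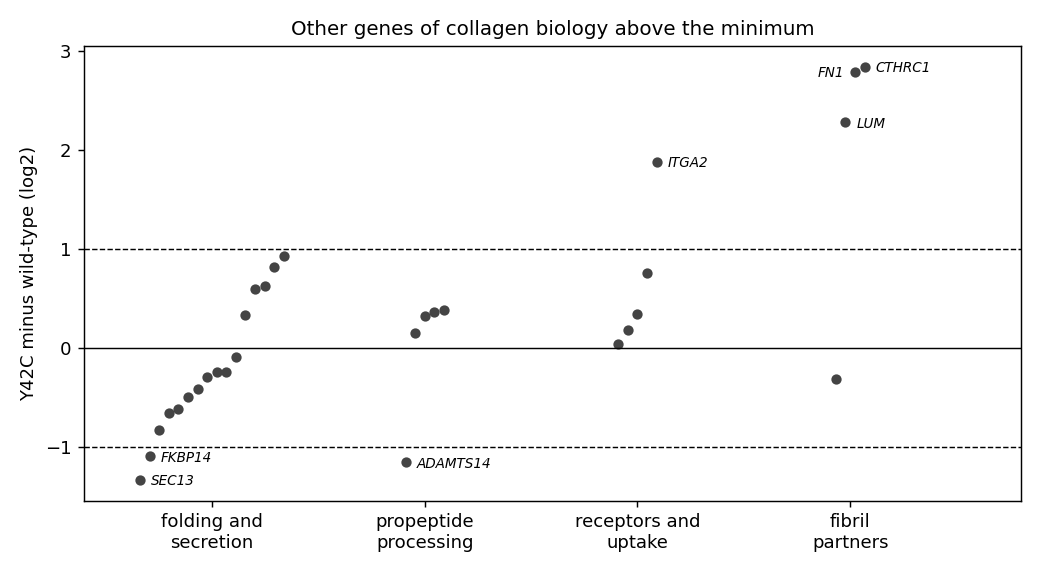
Y42C minus wild-type log2 difference of each gene above the minimum in the 4 lists of other collagen-related genes, 1 point per gene, with dashed lines at 2-fold and names for genes past it. CTHRC1, FN1 and LUM lie at 2.84, 2.79 and 2.28, and SEC13 lies at -1.33.

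Fibroblasts, which make most of these matrix genes in tissue, have markers that were read in the same arrays. Of 10 fibroblast markers, 8 were below the minimum on both arrays, among them PDGFRA (4.29 in Y42C, 4.77 in wild-type), DCN (4.89 in Y42C, 4.37 in wild-type) and THY1 (4.23 in Y42C, 3.75 in wild-type). Differences of these 8 lay between -0.48 (PDGFRA) and 1.17 (FAP, 4.67 in Y42C and 3.50 in wild-type). The markers above the minimum were LUM (14.37 in Y42C, 12.09 in wild-type) and PDPN (13.43 in Y42C, 12.44 in wild-type). LUM was past 2-fold and higher, against 7.46% of all genes above the minimum, and PDPN was just under 2-fold. LUM, DCN and DPT are also in the list of fibril partners, so the 2 lists are not separate readings. The summed linear signal of the list was 14.98 in Y42C and 13.30 in wild-type on the log2 scale, and LUM and PDPN were its 2 brightest genes. Of 6 endothelial markers 4 were above the minimum and 0 were past 2-fold, with a summed signal of 8.52 in Y42C and 8.21 in wild-type. Of 7 leukocyte markers 5 were above the minimum, with 10.47 in Y42C and 10.95 in wild-type summed. Both counts are near the share of all genes, of which 11802 of 17687 were above the minimum. Among those 11802 genes, 7.46% were past 2-fold higher and 9.8% past 2-fold lower. Of those 5 leukocyte genes 3 were higher and 2 lower: CD14 was past 2-fold and lower (5.67 in Y42C, 7.45 in wild-type), while CD3E (5.67 in Y42C, 4.70 in wild-type) and PTPRC (5.39 in Y42C, 4.61 in wild-type) were above the minimum in Y42C alone.

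Letters of known promoter elements were counted in the 250 bases before each listed start, on both strands, for the 42 members in the table and for all 35116 listed starts. GGGCGG was present for 28 of the 42 members and for 6 of the 8 members in the table that were past 2-fold and higher, and in 42.6% of all starts. CCAAT was present for 14 of the 42, and in 32.0% of all starts; among the 8 it was present for COL4A5 and COL4A6. GGAATG was present for 4 of the 42 and in 11.9% of all starts, and of the 8 COL12A1 held it. CAGACA, letters bound by SMAD factors, was present for 4 of the 42 and in 13.6% of all starts, and of the 8 COL4A6 held it. TATAAA was present for 6 of the 42 and in 10.7% of all starts, and of the 8 COL18A1 held it. TGACTCA, the AP-1 site, was present for 0 of the 42 and in 4.2% of all starts. A member with several starts was counted when any of its windows held the letters, so member counts are not on the same footing as shares of starts. COL4A6 has 2 listed starts, and its GGGCGG and CAGACA lie in the window that is not printed. These are matches of letters and do not show binding.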

How the data were processed

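Total RNA of the 2 lines was labelled as biotinylated cRNA for an Affymetrix array, per the labels' protocols. The deposited values, taken as log2 signal, cover 21448 probe sets on each array and lie between 2.23 and 18.16. They were made by the authors with Affymetrix Expression Console, per the submitters' processing notes; no source used here gives its version, background correction, summary method or normalization. Column medians were 6.36 for Y42C and 6.42 for wild-type. Arrays give no read depth, and their number limits the precision.

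The platform annotation gave 1 symbol for 17709 probe sets, several for 0 and none for 3739. The mean was taken for 20 genes with several probe sets, of which 0 are members. All 55 members matched the RefSeq gene table by Entrez identifier. The files name no genome build, so the only coordinates given are those of the RefSeq promoter table. Folds against a value below the minimum are bounds against that array's minimum, and 22 olfactory receptor genes were themselves above it. Every member above the minimum is named with both values, members below it are named with their values or as a group, and other genes of the lists are named if past 2-fold or to give a contrast. Members, lists, motifs and thresholds were chosen with earlier results of these data known. With 1 array per group no test was run, and the code was tested on simulated data. Alternatives were array centring, a quantile fit of the arrays, a lowess fit of the difference on level (span 0.3) taken out, other minimums (90th and 99th percentile, none, both arrays), values below the minimum raised to it, a constant of 16 added, the brightest probe set, folds of 1.5 and 4, and the mean of a class. Scripts ran in Python 3.11.15 with NumPy 2.4.6 and pandas 2.3.3, lowess came from statsmodels 0.14.6, and plots from matplotlib 3.10.9.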

Additional observations from a re-analysis of the deposited data

How the results depend on the processing

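No paired analysis was possible because each group has 1 array. The count of members at least 2-fold higher, 11, lay between 9 and 11 under other normalizations, minimums and treatments of dim values, was 14 at 1.5-fold and 4 at 4-fold (all 4 of them chains), against 17.8% and 1.0% of all genes above the minimum. The count of members at least 2-fold lower, 1, was 0 with the trend removed, with the constant of 16 added and at 4-fold, and 5 at 1.5-fold (2 chains and 3 enzymes), against 0.585% of all genes at 4-fold and 23.4% at 1.5-fold. Enzymes at least 2-fold higher were 4 at 1.5-fold and 0 at 4-fold. The median of fibrillar chains, 1.08, was 1.32 with the 99th percentile as minimum, 0.16 with none, 0.66 with dim values raised to the minimum and 0.86 with the constant. That of basement membrane chains, 2.37, was 0.12 with no minimum, 1.23 with both arrays above it, 2.19 with dim values raised to it, 1.92 with the constant and 1.61 as a mean. That of the other chains, 0.42, was 0.26 with the 90th percentile as minimum, 0.06 with none and 0.26 with dim values raised to it. Since a lower or absent minimum adds dim chains, these medians depend on which chains are counted. The median of the enzymes, -0.07, was 0.0009 with the trend removed and 0.12 as a mean. Of 310 recomputed differences of single members, 305 stayed on their side of 2-fold. The other 5 concern COL1A2 (0.99 with the constant), COL26A1 (above), and COL27A1 (0.29 with dim values raised to the minimum, 0.73 with the constant). Many of the 310 could not move. A changed minimum alters only which members are kept, and raising dim values alters only members below the minimum on 1 array. The brightest probe set changed no member's value, since each member has 1. Centring moved the median of all genes above the minimum to -0.01.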
